A study of Mus musculus with 6 samples.

Results

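Gene-specific TAIL-seq was used to set untreated macrophages of Tut7-/- mice against those of wild-type mice. The cells were BMDMs, macrophages that differentiate in culture from bone marrow progenitors. Every gene with 10 or more reads over the untreated wild-type library (WT-Ctrl) and the untreated knockout library (KO-Ctrl) was taken, which gave 191 of the 602 genes with a read in either library and of 56262 gene identifiers in all. The marrow of both groups came from female C57BL/6J mice, 7-week-old, and was differentiated over 7 days with medium conditioned by L929 cells (20%), then held in M-CSF at 10 ng/ml. Neither group received an agent, and the groups differ in the genotype label alone. The other 4 libraries of the series hold cells of the same genotypes after lipopolysaccharide (LPS) for 2 h or 4 h. Each group had 1 library, so no difference below has a replicate check, and the labels do not say how many mice a library holds. All intervals are exact 95% intervals for counting error only, because copies of 1 molecule made by PCR cannot be recognised and are counted as separate reads.

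Terminal uridyltransferase 7 (TUT7) and its relative TUT4 add uridines to the 3′ ends of RNAs, and a short U-tail can mark an mRNA for decay. Zc3h12a encodes Regnase-1, an RNase that destroys inflammatory mRNAs and so restrains macrophages at rest. TAIL-seq reads the 3′ ends of transcripts. In the gene-specific form a linker is joined to the RNA end, and a forward primer for each target transcript drives its amplification. A read count is therefore a share of an amplified pool, not a level in the cell. Genes outside the chosen targets make up a background, and most of the 191 genes belong to it.

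The oligonucleotides that frame each read of the Il6 lists are shown because many untreated reads carry the primer without carrying Il6. Capitals in the primer mark its last 12 letters, the end from which a polymerase extends.
Il6 forward primer: tgtttagactgtcttCAAACAAATAAA
linker-1: ctgtaggcaccatcaat
Il6 after the primer: ttatattatattt

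The count tables held 26027 reads in WT-Ctrl and 21408 in KO-Ctrl, between 43540 and 56718 reads in the LPS libraries, and 401 and 376 genes with a read in WT-Ctrl and KO-Ctrl. A count of 0 allows a share of up to 0.0115% in WT-Ctrl and 0.014% in KO-Ctrl, the share of 3 reads. Tut7 and Tut4 had 0 reads in every library, so these counts do not check the knockout label. Nor do they check the cell type, because 0 of 17 macrophage marker genes, Csf1r and Adgre1 among them, had a read in either untreated library. Lists for neutrophils, B cells, T or NK cells, dendritic cells, fibroblasts, erythroid cells and mast cells were also at 0. Of 5 osteoclast genes only Dcstamp, needed for cell fusion, was detected, with 9 reads in WT-Ctrl and 12 in KO-Ctrl.

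The abundant genes differed little between the libraries, and the rare ones differed much. A gene was called past 2-fold when its share differed at least 2-fold and the interval of the ratio left out 1, with a count of 0 set at 3 reads. By this rule 69 genes, or 36.1% of those compared, were higher in KO-Ctrl, and 44 genes, or 23%, were lower. None of the 10 genes with 300 or more reads over both libraries was called with shares of the library total, and 1 of them, Rab10, was called lower under each of 4 other scalings. Among the 18 genes with 100 to 299 reads, 2 were higher and 2 lower. Among the 37 genes with 30 to 99 reads, 19 were higher and 6 lower, and among the 126 genes with 10 to 29 reads, 48 were higher and 36 lower. The median size of the log2 ratio, with 0.5 read added to each count, was 0.32, 0.39, 1.67 and 3.23 in these 4 classes. Whether these differences belong to the genotype, the animals or the library preparation cannot be told apart. In such bulk RNA, fewer cells of a type and less RNA per cell cannot be told apart either.

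**Figure D1:**
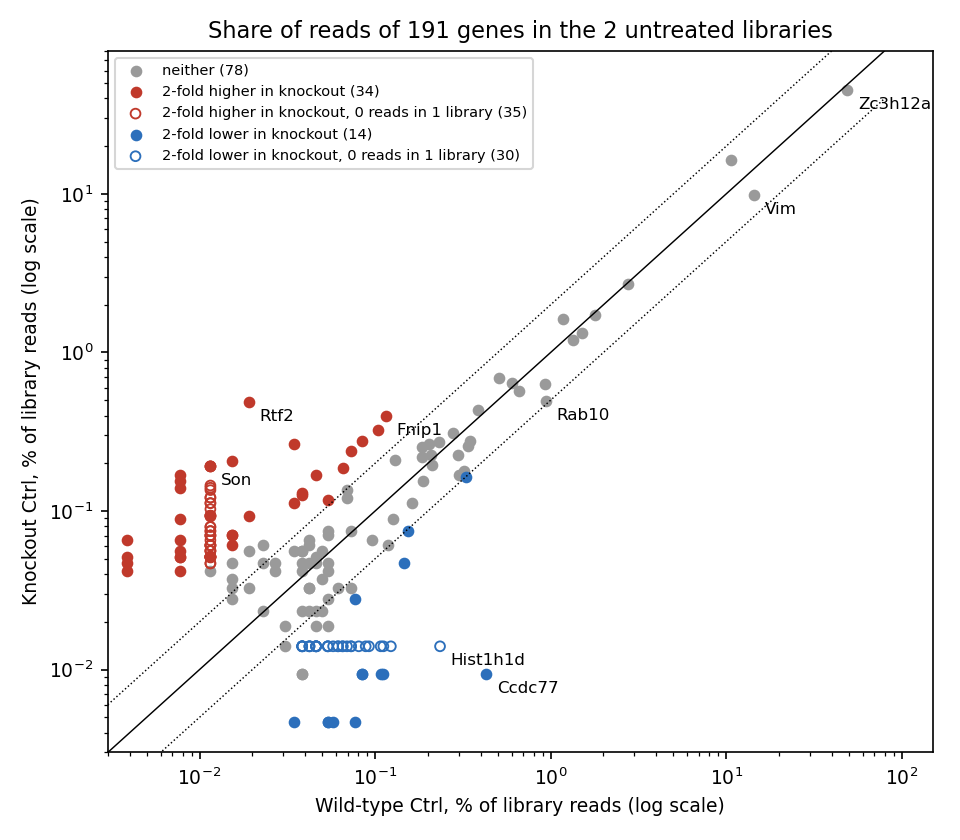
Share of library reads of each gene in WT-Ctrl (x axis) and KO-Ctrl (y axis), both in percent on log scales. Filled points had reads in both libraries, open points had 0 reads in 1 library and are drawn at the 3-read limit, the solid line is equality and the dotted lines are 2-fold differences. Genes above 1% of reads lie within the 2-fold lines, and the 69 higher and 44 lower genes lie at low shares.

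**Figure D2:**
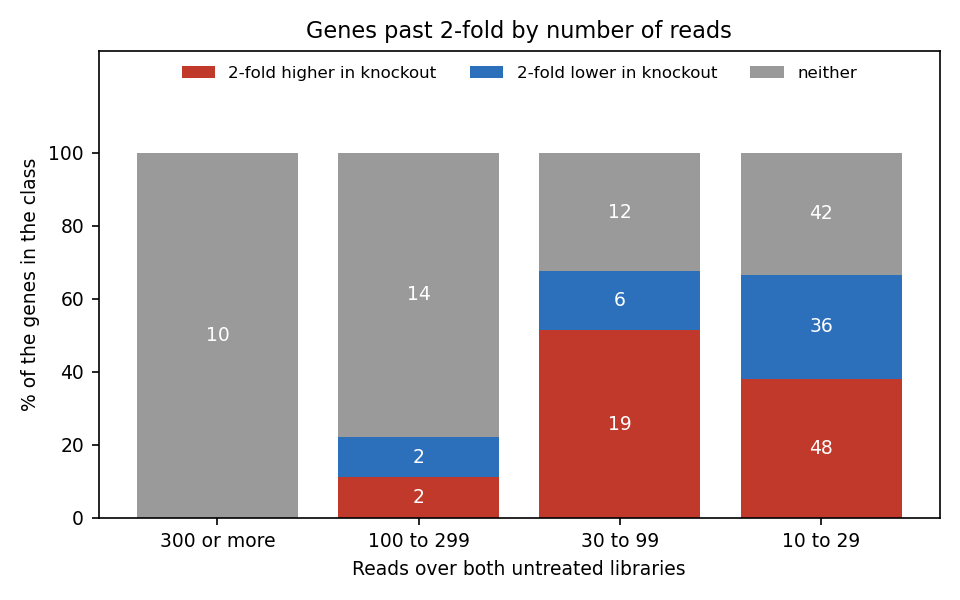
Genes by reads over both untreated libraries (x axis), with the percent of each class that was 2-fold higher, 2-fold lower or neither (y axis) and the number of genes in each bar. With shares of the library total no gene with 300 or more reads was called (Rab10 was called lower under 4 other scalings), against 67.6% of genes with 30 to 99 reads and 66.7% of genes with 10 to 29 reads.

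Much of the difference was all or none. In WT-Ctrl 35 genes had no read, and in KO-Ctrl 30 genes had none, each with 10 or more reads in the other library, which suffices for a call by itself. These 65 genes held 2.86% of KO-Ctrl reads and 2.04% of WT-Ctrl reads, and the largest had 61 reads. The other 126 genes had reads in both libraries, of which 34 were called higher and 14 lower. Of the 65 genes seen in 1 library, 41 had no read in any of the 4 LPS libraries, against 14 of the 126 seen in both. Of the 47 genes with a read in all 4 LPS libraries, 11 were called in Ctrl, against 49 of the 55 genes with none. Of those 49 calls, 41 are for genes seen in 1 untreated library and so follow from the rule. Depth differs too, as the 65 genes seen in 1 library had a median of 15 reads over both.

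No gene with a name label in the deposited tables was called. All 5 together took 62.0% (61.4% to 62.6%) of WT-Ctrl and 63.4% (62.7% to 64.03%) of KO-Ctrl. Zc3h12a itself had 12785 reads in WT-Ctrl and 9645 in KO-Ctrl, and its share was 1.09-fold lower in the knockout (interval 1.06 to 1.12). The anti-inflammatory cytokine Il10 had 393 and 286 reads, a ratio of 0.885 (0.757 to 1.03). Tnf, an early inflammatory cytokine, had 172 and 122 reads, a ratio of 0.862 (0.678 to 1.09). Both intervals include a ratio of 1, and both move below it with TMM factors, DESeq2 size factors or library sizes without the 10 most abundant genes. Il6 had 0 reads in WT-Ctrl and 2 in KO-Ctrl and is not one of the 191 genes.

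The largest background gene was Vim, which encodes the intermediate filament protein vimentin. It had 3760 reads in WT-Ctrl, 14.4% of the library, and 2097 in KO-Ctrl, 9.8%, and was 1.47-fold (1.40 to 1.56) lower in the knockout. Rab10, a small GTPase of vesicle transport, had 245 and 106 reads and was 1.90-fold (1.51 to 2.41) lower. The lincRNA 4930589L23Rik had 242 and 136 reads and was 1.46-fold (1.18 to 1.82) lower. Of the other abundant genes, only Lpl, the lipoprotein lipase that macrophages secrete, stood higher among those named here. It had 307 and 349 reads, a ratio of 1.38 (1.18 to 1.62). Usp18, the interferon-induced protease that removes ISG15, had 133 and 148 reads and a ratio of 1.35 (1.06 to 1.72). Actr2, a subunit of the actin-nucleating Arp2/3 complex, had 466 and 371 reads and a ratio of 0.968 (0.842 to 1.11). Ccny, which encodes cyclin Y, had 716 and 582 reads with a ratio of 0.988 (0.884 to 1.10). The chromatin kinase gene Tlk1 had 351 and 255 with 0.883 (0.749 to 1.04). For Ccny and Actr2 the interval moves below 1 with TMM factors, DESeq2 size factors or library sizes without the 10 most abundant genes. For Tlk1 it moves below 1 under each of the 4 other scalings. Cat, which encodes catalase, had 100 and 93 reads and a ratio of 1.13 (0.843 to 1.51). With shares of the library total these ratios stay under 2-fold in either direction, but that of Rab10 passed 2-fold under the 4 other scalings, with log2 ratios of -1.03 to -1.24.

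Ccdc77 had the lowest ratio among genes with reads in both libraries. It had 112 reads in WT-Ctrl and 2 in KO-Ctrl, a ratio of 0.0217 (0.0026 to 0.0803). The linker histone gene Hist1h1d had 61 reads in WT-Ctrl and 0 in KO-Ctrl. It was 16.7-fold lower with the 0 set at 3 reads, and the interval of the ratio ends at 0.0758. Plekhm2, which encodes an adaptor for lysosome movement, had 32 and 0 reads. It was 8.77-fold lower with the 0 set at 3 reads, with an interval that ends at 0.149. Abca1, the cholesterol exporter, had 38 and 10 reads, 3.13-fold (1.53 to 7.03) lower. Coa3, an assembly factor of cytochrome c oxidase, had 40 and 16 reads and was 2.06-fold (1.13 to 3.93) lower. Dennd2c had 86 and 35 reads, 2.02-fold (1.35 to 3.09) lower. Mosmo, with 84 and 38 reads, and Mmachc, a vitamin B12 processing gene, with 78 and 36, were 1.82-fold and 1.78-fold lower. Both passed 2-fold when the 10 most abundant genes were left out of the library size and with DESeq2 size factors, and Mosmo also with TMM factors.

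Rtf2, a replication fork factor, had the highest ratio among genes with reads in both libraries. It had 5 reads in WT-Ctrl and 104 in KO-Ctrl, a ratio of 25.3 (10.5 to 79.5). The noncoding snoRNA host gene Gas5 had 2 and 36 reads, a ratio of 21.9 (5.63 to 188). Acer3, an alkaline ceramidase, had 2 and 33 reads with a ratio of 20.1 (5.13 to 173), and the inhibitory lectin receptor gene Cd72 had 2 and 30 with 18.2 (4.63 to 157). With so few wild-type reads these ratios are loose. Tmem220 had 3 and 41 reads, a ratio of 16.6 (5.30 to 83.9), and Phip had 4 and 44, a ratio of 13.4 (4.87 to 51.2). Son, a splicing cofactor, went from 0 reads in WT-Ctrl to 41 in KO-Ctrl. With the 0 set at 3 reads it was 16.6-fold higher, and its interval starts at 12.9. Dync1h1, the heavy chain of cytoplasmic dynein, had 0 and 31 reads, 12.6-fold higher by the same rule with an interval from 9.62. Arfgef1, which activates ARF GTPases, had 0 and 30 reads, 12.2-fold higher by the same rule with an interval from 9.29. Fnip1, a partner of folliculin, was higher by less but on more reads, with 30 in WT-Ctrl and 85 in KO-Ctrl, a ratio of 3.44 (2.25 to 5.41). Cst3, which encodes the protease inhibitor cystatin C, had 27 and 69 reads and a ratio of 3.11 (1.96 to 5.04).

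Further background genes were spread over many functions. Of the 191 genes, 171 were protein-coding, with 65 called higher and 39 lower. Seen in KO-Ctrl alone were Ralgapa2 with 29 reads, Ifngr2, a subunit of the interferon gamma receptor, with 26, Top2a, the topoisomerase of dividing cells, with 26, Plcg1, a phospholipase C, with 24, and the proteasome gene Psmb4 with 17. Of these only Top2a and Psmb4 had a read in the LPS libraries. Seen in WT-Ctrl alone were Thrb, a thyroid hormone receptor, with 29 reads, the nuclear pore gene Nup155 with 28, and 3 genes of chromatin enzymes, Kmt2c with 17, Ezh2 with 14 and Ep300 with 12. Casp1, the inflammatory caspase, had 4 reads in WT-Ctrl and 15 in KO-Ctrl, a ratio of 4.56 (1.45 to 18.9). Other genes were close to equal. Gpr65, a proton-sensing receptor, had 72 and 66 reads, Mfhas1 had 60 and 58, Mbnl1, a splicing regulator, had 53 and 57, Ogt, the O-GlcNAc transferase, had 48 and 54, and H2-D1, of the MHC class I, had 12 and 11. At the minimum itself, 9 genes had exactly 10 reads, 6 of them in 1 library alone, and 11 genes just outside it had 9 reads, 8 of them in 1 library alone.

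**Figure D3:**
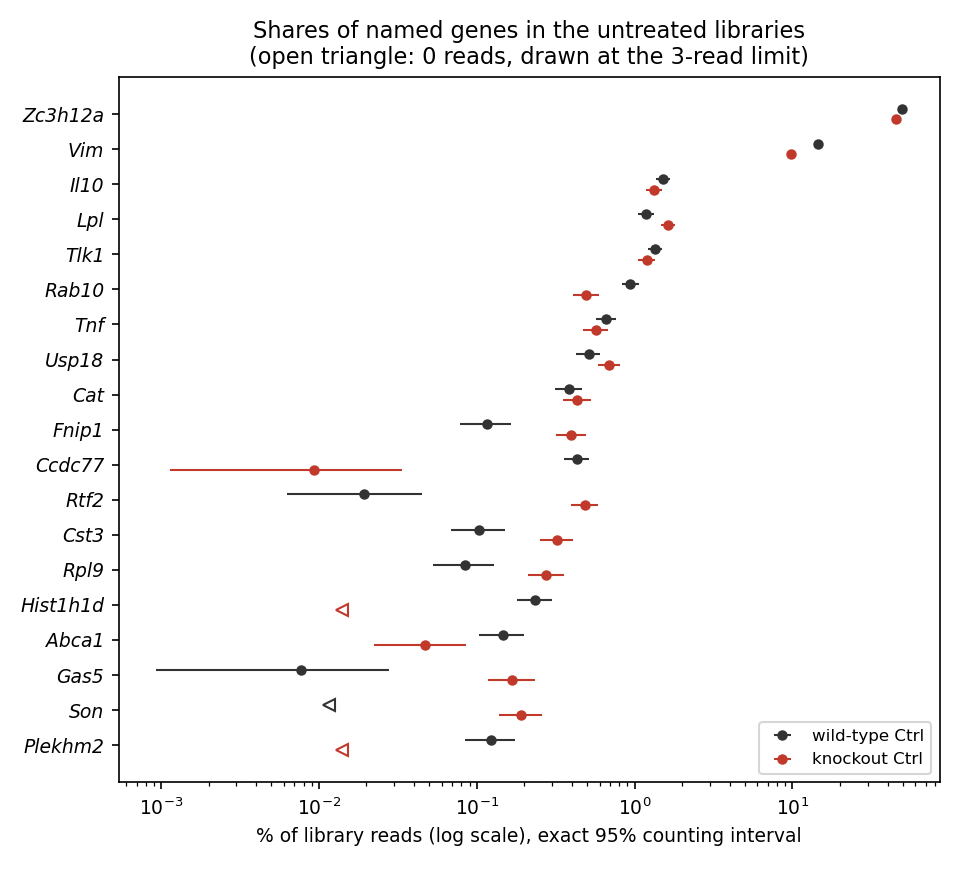
Share of library reads (x axis, percent, log scale) of named genes in WT-Ctrl (black) and KO-Ctrl (red) with exact 95% counting intervals. Open triangles are counts of 0 at the 3-read limit. From Zc3h12a to Cat the shares lie within 2-fold of each other, though Vim was 1.47-fold and Rab10 1.90-fold lower in KO-Ctrl. Ccdc77, Rtf2, Hist1h1d, Gas5, Son and Plekhm2 are set far apart.

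Calls within most gene groups were few or went both ways. Over all 191 genes 36.1% were called higher and 23% lower. Hist1h1d, Zfp36l1, Dync1h1, Coro1a, Msn, Srebf1 and Nfe2l2 had 0 reads in 1 library, so their calls follow from the rule. Of the 3 linker histone genes, Hist1h1d was called lower, but Hist1h1b had 14 reads in WT-Ctrl and 15 in KO-Ctrl and Hist1h1c had 12 and 10. These genes are close in sequence, and reads could be split between them. Of 62 genes for terminal transferases and RNA decay, 2 had 10 or more reads. They were Pan2, a deadenylase subunit, with 4 and 15 reads and called higher, and Zfp36l1, which binds AU-rich elements, with 18 and 0 and called lower. Of 10 cytoskeleton genes, 3 were called higher, Dync1h1, Coro1a and Anxa2, and 1 lower, Msn, with 17 reads in WT-Ctrl and 0 in KO-Ctrl. Of 6 genes of lysosomes and lipid handling, Ctsb and Srebf1 were called higher, Abca1 lower, and 3 neither. Without the 10 most abundant genes in the library size Ctsb lost its call, as did Anxa2, and Ctsd was called lower, as it was with DESeq2 size factors. Of 4 redox genes, Prdx5 was higher with 10 and 28 reads, Nfe2l2, the transcription factor NRF2, was lower with 10 and 0, and 2 were neither.

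Of 8 vesicle traffic genes with enough reads, 6 were called higher and 0 lower, where 36.1% and 23% of all 191 genes were. All 6 had 0 reads in WT-Ctrl and entered the comparison through KO-Ctrl alone, so their calls follow from the rule. Of these, Arl14ep and Secisbp2l entered the list by a symbol pattern alone, and without both 4 of 6 were called. Sec11a is among those 4, and it too may be misplaced in the list. Snx30 had 0 reads in WT-Ctrl and 24 in KO-Ctrl. Sec24b, a cargo adaptor of the COPII coat, and Vps35, of the retromer, had 0 and 20 reads each. Summed reads of the list, Rab10 included, took 1.08% (0.961% to 1.22%) of WT-Ctrl and 1.04% (0.910% to 1.19%) of KO-Ctrl.

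Ribosomal protein and translation factor genes summed to 67 reads in WT-Ctrl and 137 in KO-Ctrl, with a ratio of 2.49 (1.84 to 3.38). It came from Rpl9 with 22 and 59 reads and its copy Rpl9-ps6 with 3 and 41, which can share reads and so count as uncertain. The pseudogene Rpl23a-ps3 had 12 and 0. Of 6 long noncoding RNAs, 4 were called higher, Gas5, Gm26679, Gm45406 and Gm47484, and 0 lower, against 36.1% and 23% of all genes. These 4 had 0 to 2 reads in WT-Ctrl, and the summed ratio over all long noncoding RNAs was 1.04 (0.880 to 1.23). Neat1, the scaffold of paraspeckles, had 42 and 24 reads with a ratio of 0.695 (0.402 to 1.17). Counting by strand was not given, so reads of antisense genes such as Gm26679 cannot be told from those of their partners. The mitochondrial transcripts mt-Rnr2, mt-Atp6 and mt-Rnr1 had 90 and 59, 77 and 48, and 18 and 29 reads, and none was called. The annotated rRNA gene CT010467.1 had 156 and 137 reads, a ratio of 1.07 (0.842 to 1.35).

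Another scaling shifted all log2 ratios by the same amount and altered the balance. TMM factors moved them by -0.15, DESeq2 size factors by -0.21, a library size without Zc3h12a and Il6 by -0.11 and one without the 10 most abundant genes by -0.32. The median log2 ratio of 0.28 became 0.13, 0.08, 0.17 and -0.03. Higher calls numbered 65 to 69 and lower calls 44 to 52 over the 5 scalings. Usp18 and Tspo no longer had an interval that left out 1 under any of the 4 alternatives, and Lpl under the last. Vim and Rab10 stayed lower in all 5, and Rab10 passed 2-fold in all but the library size.

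**Figure D4:**
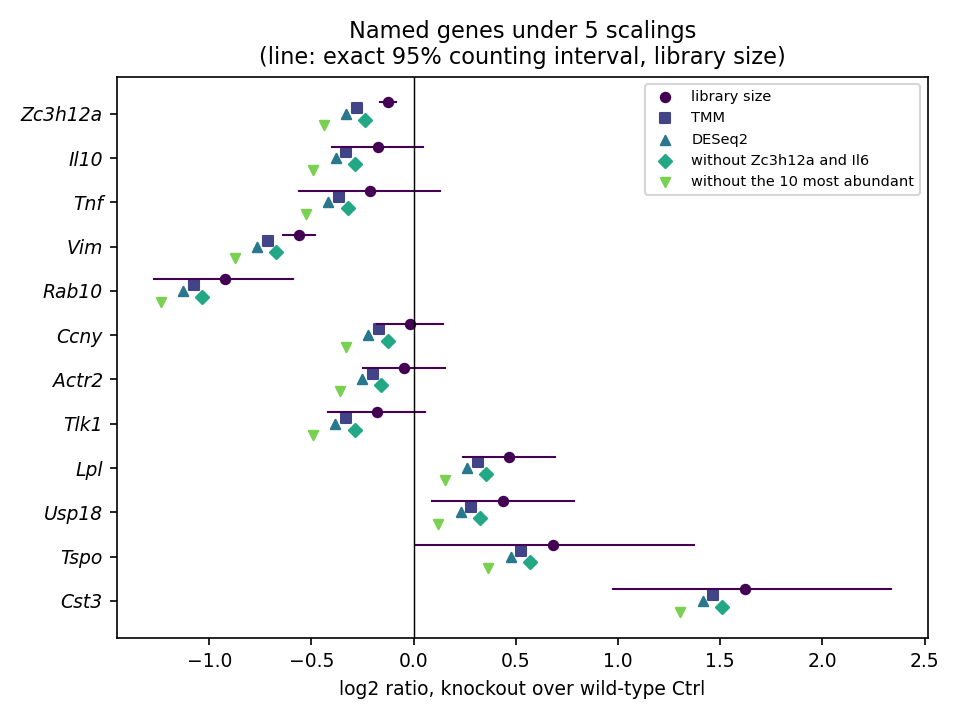
log2 ratio of KO-Ctrl over WT-Ctrl (x axis) for named genes under 5 scalings (marker shapes), with the exact 95% counting interval for the library size as a line. Each alternative lies to the left of the library size value, and Vim and Rab10 stay below 0 throughout.

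The same genotypes after LPS were sequenced as separate libraries, so those pairs share no library with the untreated one. Of the 115 genes with 10 or more reads in the LPS 2 h pair, 29, or 25.2%, were called higher in the knockout and 36, or 31.3%, lower. Of 97 genes at LPS 4 h, 32, or 33%, were higher and 27, or 27.8%, lower. At 2 h, 23 of the genes called in Ctrl had enough reads, and 11 lay on the same side. At 4 h, 24 had enough reads and 16 lay on the same side. Over all of the 191 genes with enough reads, 37 of 69 lay on the same side at 2 h and 26 of 56 at 4 h. At 4 h 36 of those 56 were higher in the knockout. Of the 11 Ctrl-higher genes measured at 2 h, 3 were called higher again and 5 lower, and of 19 at 4 h, 8 were called higher again and 3 lower. Of the 12 Ctrl-lower genes measured at 2 h, 3 were called lower again and 3 higher, and of 5 at 4 h, 1 lower again and 1 higher. Rin3, a RAB5 regulator, had 9 and 57 reads in Ctrl, 0 and 0 at 2 h, and 0 and 13 at 4 h. Tmem220 had 3 and 41 in Ctrl, 0 and 0 at 2 h, and 0 and 39 at 4 h. Mapre1, a microtubule end-binding protein, was higher in Ctrl with 12 and 36 reads but had 14 and 0 at 2 h and 18 and 0 at 4 h. Son, Dync1h1, Arfgef1, Fnip1 and Abca1 had no read in any LPS library.

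Of the genes reported here, 18 had 30 or more reads in each of the 3 pairs. With shares of the library total, 6 of them lay on 1 side throughout. Lpl was higher in the knockout library in all 3, with log2 ratios of 0.47, 0.45 and 1.12 at Ctrl, 2 h and 4 h. Usp18 had 0.44, 0.28 and 0.12, and Cst3 had 1.62, 0.94 and 0.38. Ints2, of the Integrator complex, had 1.68, 1.23 and 0.38, and Gm43430 had 0.80, 0.12 and 0.19. Lcp1, which encodes the actin-bundling L-plastin, had -0.10, -0.10 and -0.13. The sides depend on the scaling. At LPS 4 h TMM factors moved every log2 ratio by -0.29, which takes Usp18 and Gm43430 below 0. DESeq2 size factors moved them by -0.41, which takes Cst3 and Ints2 below 0 as well. At LPS 2 h DESeq2 size factors moved them by 0.14, which takes Lcp1 above 0. Vim went from -0.56 to -0.0029 and 0.77, and Rab10 from -0.92 to -0.14 and 1.25, so their direction in the untreated pair was not kept.

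**Figure D5:**
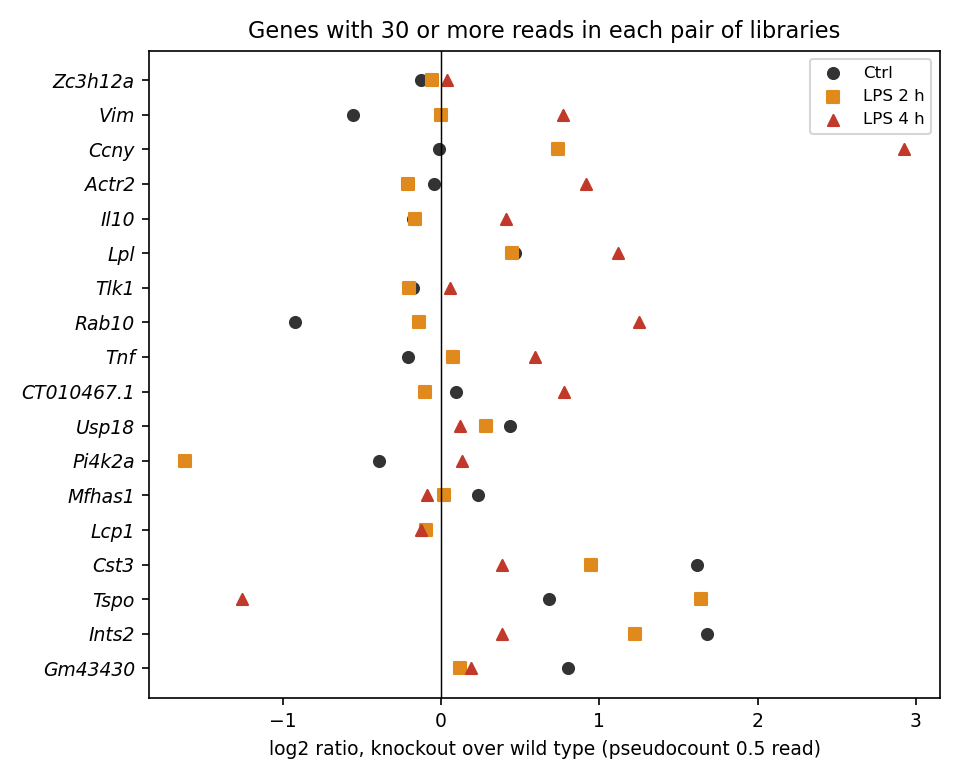
log2 ratio of the knockout over the wild-type library (x axis) in the Ctrl, LPS 2 h and LPS 4 h pairs for 18 genes with 30 or more reads in each pair. At LPS 4 h 15 of 18 lie above 0, against 8 in Ctrl, and Vim and Rab10 change sides. All values are for shares of the library total. TMM factors would shift every LPS 4 h value by -0.29 and DESeq2 size factors by -0.41.

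The lists of reads with the Il6 primer held 277 reads in WT-Ctrl and 207 in KO-Ctrl, although Il6 had 0 and 2 reads in the count tables. All reads within a list were distinct, and all began with the primer shown above and contained the linker. The stretch between primer and linker had a median length of 50 bases in WT-Ctrl and 49 in KO-Ctrl. Il6 continues after the primer as ttatattatattt. Of stretches with 13 or more bases, 3 of 233 in WT-Ctrl and 0 of 177 in KO-Ctrl continued so, with up to 2 mismatches allowed. A count of 0 allows up to 3 reads of the 177.

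An exact match of the first 20 bases to annotated mouse transcripts was found for 40 of 218 stretches in WT-Ctrl, 18.3% (13.4% to 24.1%), and for 24 of 155 in KO-Ctrl, 15.5% (10.2% to 22.2%). Only 21 and 14 of these matched a single gene. The rest, 178 and 131, matched no transcript, and introns and the space between genes were not searched. Ghitm, an inner mitochondrial membrane protein, was the most frequent single match, with 8 reads in WT-Ctrl and 9 in KO-Ctrl. Rab10 had 1 and 2 reads and Neat1 2 and 1. Among 13 genes matched singly, the transcript just before the match held all of the last 12 primer letters in 5 and 11 of them in 3. Those letters, CAAACAAATAAA on the transcript strand, occur in the longest transcript of 0.305% of protein-coding genes.

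The first 5 places below were picked from those with 11 or 12 of the last 12 letters, and Ghitm stands for the 5 genes with fewer, with capitals where the transcript has the primer's letter at that position.
Ugdh: TGTTTttcCTtTaagCAAACAAATAAA
Mical2: gtgagAttCTGTCTcCAAACAAATAAA
Riok2: ctcgTctACaGaCagCAAACAAATAAA
Rab10: TaTTataAtTtTCTTCAAACAAAcAAA
Neat1: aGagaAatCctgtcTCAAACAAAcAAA
Ghitm: cagacAaggacctgTCtctaAtAcAAg
In mm10 the Ugdh place lies in the 3′ UTR at chr5:65413242-65413268 (minus strand) and that of Mical2 in an exon of a noncoding transcript at chr7:112347468-112347494 (plus strand). That of Riok2 lies in coding sequence at chr17:17387295-17387321 (plus strand). The Rab10 place is in the 3′ UTR at chr12:3249597-3249623 (minus strand), and that of Neat1 in its noncoding exon at chr19:5834127-5834153 (minus strand). The Ghitm place is in the 3′ UTR at chr14:37121369-37121395 (minus strand). Ugdh and Rab10 had 20 of 27 letters identical to the primer, Mical2 19, Riok2 17 and Neat1 15. Ghitm had 7, and its last letter already differs from the primer. The first 5 rest on 1 to 3 reads each over both libraries. A match is a description of letters and was not tested as a priming site.

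The base next to the linker was T, which is U in RNA, in 74 of 276 stretches of WT-Ctrl, 26.8% (21.7% to 32.5%), and in 38 of 206 of KO-Ctrl, 18.4% (13.4% to 24.4%). The intervals overlap. It was A in 40.6% and 43.7%. Nearly none of the stretches with 13 or more bases continued as Il6, so the values cannot be read as tails of Il6. Shorter stretches, which these counts include, were not checked for Il6. Which molecules the ends belong to was not tested. Of the stretches searched, 178 in WT-Ctrl and 131 in KO-Ctrl matched no transcript. Stretches that began with CAAA numbered 137 and 95. Among genes matched singly, all but Ugdh had the place 137 or more bases before the transcript end. The longest stretch had 106 bases in WT-Ctrl and 107 in KO-Ctrl.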

How the data were processed

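Gene-specific TAIL-seq was done on total RNA of BMDMs, with linker ligation, rRNA depletion, RNase T1 fragmentation and PCR. The authors aligned reads to mm10 with HISAT2 and deposited raw read counts per Ensembl gene and lists of Il6-primer read sequences. Not given in the sources used here were the aligner's version, the counter, its strand setting, any removal of PCR duplicates and whether a library pools samples. All 964 identifiers with a read matched GENCODE M21, 935 with the same version.

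Shares of the library total (26027 and 21408 reads) were compared by ratios with exact conditional binomial 95% intervals and shares by Clopper-Pearson intervals (scipy 1.17.1), with no p-values. The interval step was tested on simulated data. Scalings used edgeR 4.0.16 and DESeq2 1.42.0 in R 4.3.3. Members and lists were chosen with earlier results of these data known. Genes named were those labelled, the 10 most abundant, the 10 largest ratios each way with at least 30 reads in 1 library, and up to 4 per list (all of 5 or fewer). All others, such as Fnip1, Cst3, Rin3, Mapre1 and Ints2, were chosen after their values were seen. 1 labelled gene was counted but is not reported here.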

Additional observations from a re-analysis of the deposited data

Results flagged for a closer look

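Shares of the library total were used here. Of the genes reported here with 30 or more reads in both the Ctrl and the LPS 4 h pair, 5 changed side. Their interval of the knockout to wild-type ratio lay on 1 side of 1 in Ctrl and on the other side at LPS 4 h. Each side is 1 library per genotype, so the difference between times was not tested. Rab10 had 245 and 106 reads in Ctrl and 26 and 48 at LPS 4 h, and its log2 ratio was higher at LPS 4 h by 2.18. 4930589L23Rik had 242 and 136 reads and then 36 and 54, a difference of 1.51. Its LPS 4 h interval was 1.26 to 3.07, and with DESeq2 size factors it included a ratio of 1. Vim had 3760 and 2097 reads and then 620 and 812, a difference of 1.33. Zc3h12a had ratios of 0.917 and 1.02, a difference of 0.16. Its log2 ratio at LPS 4 h was only 0.034. TMM factors moved log2 ratios of that pair by -0.29 and DESeq2 size factors by -0.41, so with either Zc3h12a was lower in the knockout at both times. Tspo, an outer mitochondrial membrane protein, went the other way, with 34 and 45 reads in Ctrl and 138 and 44 at LPS 4 h, a difference of -1.94. With each other scaling the Ctrl interval of Tspo no longer left out a ratio of 1.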

How the results depend on the processing

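With 1 library per group, no replicate could be left out. No paired analysis was possible because each genotype has 1 untreated library. A change of scaling kept the counts of 69 higher and 44 lower genes within 1.5 times. Without a filter beyond 1 read, 109 of 602 genes were higher and 54 lower, and with 50 or more reads 7 and 4 of 41. A fold of 1.5 gave 72 and 47, and a 99% interval 65 and 41. The median log2 ratio of 0.28 became 0.13 with TMM factors, 0.0768 with DESeq2 size factors, 0.17 when Zc3h12a and Il6 were left out of the library size, -0.0334 without the 10 most abundant genes, 0.068 without a filter and -0.0467 with 50 or more reads. With 30 or more reads over the LPS pair, genes on the same side numbered 2 of 4 at 2 h and 4 of 6 at 4 h. Over all genes compared at that minimum they numbered 19 of 29 and 9 of 25.

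Leaving the 10 most abundant genes out of lists and library sizes changed summed list ratios. The cytoskeleton ratio of 0.726 became 1.01 without Vim and Actr2, and that for lysosome and lipid handling went from 1.26 to 0.756 without Lpl. The ratio for long noncoding RNAs became 1.77 without 4930589L23Rik, and that for vesicle traffic 3.09 without Rab10. The 6 vesicle traffic genes called higher all had 0 reads in WT-Ctrl. With no gene dropped, the changed library sizes gave 0.741 for mitochondrial genes and 0.829 for the list named small noncoding RNAs. All 3 genes of that list with 10 or more reads were rRNAs, 2 of them also mitochondrial. The intervals of these 4 ratios then left out 1. Ratios became 1.07 for redox and iron, 1.34 for splicing and 1.05 for ubiquitin genes, with intervals that then included 1. A 15-base match raised the matched share to 65.5% in WT-Ctrl and 64.3% in KO-Ctrl, since shorter stretches match more transcripts. For the 63 named genes over 4 scalings, no called direction reversed in 252 values, 15 lost and 25 gained an interval that leaves out 1.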
